A study of Mus musculus with 4 samples.

Results

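Droplet barcodes with few UMIs (unique molecular identifiers, each standing for 1 captured RNA molecule) are usually discarded before single-cell analysis. The barcodes described here were chosen by 3 measured values: from 1000 to fewer than 6000 UMIs, 500 or more detected genes and under 10% of their UMIs in mt- genes, the protein-coding genes of the mitochondrial genome. There were 342 of them among 4573129 barcodes with at least 1 UMI, and they are called small barcodes below. They numbered 67 and 54 in the butyrate libraries, against 107 and 114 in the control libraries. Large barcodes had 6500 or more UMIs under the same gene and mt- limits and numbered 9921, and free RNA was read from the 4513412 barcodes with 1 to 100 UMIs. These values are given as description with no test. "Small" refers to UMIs, since no cell size was measured.

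The cells were CD8+ T cells grown from the spleens of gBT-I.CD45.1 tg mice, whose T cells carry a transgenic receptor for a herpes simplex virus glycoprotein B peptide. Splenocytes were activated in culture with peptide-pulsed B6 splenocytes and 6 µg LPS and kept in 12.5 U/ml human IL-2. The butyrate cultures received 0.5 mM sodium butyrate on days 3 to 5 and the control cultures received PBS, and viable CD8+ Vα2+ cells were sorted on day 6 to over 98% purity. Each treatment had 2 libraries of the 10X 3' kind. Replicate 1 of both treatments came from mouse 2 and replicate 2 of both from mouse 3. The p-values of butyrate against control therefore measure the spread between cultures of 2 mice. Those of small barcodes against large barcodes or free RNA measure how the difference within a library varied over the 4 libraries. The labels used here state no mouse ages.

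A resting T cell is small, holds little RNA and keeps quiescence factors such as Klf2, Tcf7, Btg1 and the IL-7 receptor switched on. An activated cell grows, makes ribosomes and divides, and carries far more RNA. Cells that burst release their RNA into the suspension, where every droplet takes up some of it. Malat1 is a long noncoding RNA that stays in the nucleus, so its level is commonly used to tell droplets that hold a nucleus from droplets that hold only cytoplasm.

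Each library held 64388093 to 76522004 UMIs, of which the small barcodes took 0.289% to 0.705%. The median small barcode had 4770 and 4550 UMIs in the butyrate libraries and 4534 and 4660 in the control libraries, against medians of 20470 to 24814 UMIs for large barcodes. Free RNA came to 58.1 and 37.0 UMIs per droplet in the butyrate libraries and 105.6 and 68.8 UMIs in the control libraries, read from low-count barcodes down to rank 40000 by UMIs, which is 0.813% to 2.33% of the median small barcode. No small barcode had 1000 or more UMIs in another library, and none lay 1 base from a large barcode of its own library. Among large barcodes 36 were seen in another library.

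Small barcodes made up 2.55% (exact binomial 95% interval 1.98% to 3.23%) and 1.99% (1.50% to 2.59%) of small and large barcodes together in the butyrate libraries. They made up 4.93% (4.05% to 5.92%) and 4.14% (3.43% to 4.96%) in the control libraries. The group means were 2.27% ± 0.394 in butyrate and 4.53% ± 0.554 in control (SD, n = 2 each), and the groups did not overlap. The shares rest on the UMI, gene and mt- limits of the rule, and each group had 2 libraries, so they are given as description with no test. With no mt- limit the shares were 7.54% and 6.74% in the butyrate libraries and 17.2% and 14.5% in the control libraries. Intervals cover counting error only.

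**Figure D1:**
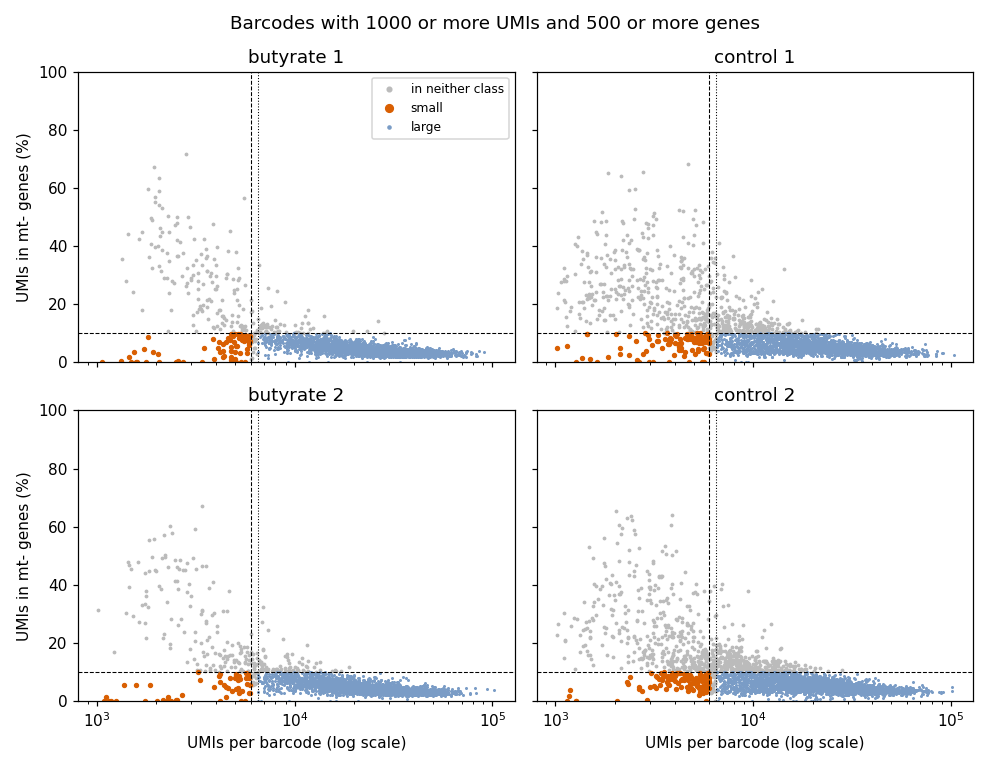
UMIs per barcode (log axis) against the percent of UMIs in mt- genes, for barcodes with 1000 or more UMIs and 500 or more genes, 1 panel per library with butyrate at left. Dashed lines mark 6000 UMIs and 10% mt-, and the dotted line marks 6500 UMIs; most barcodes left of 6000 UMIs lie above 10% mt- and are not small barcodes by the rule.

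T cell receptor RNA was found in most small barcodes, at a level close to that in free RNA. After thinning each barcode to 1000 UMIs at random, 97.1% of small barcodes and 98.1% of large barcodes had a UMI of Trac, Trbc1 or Trbc2, the constant segments of the receptor chains. Without thinning the shares were 99.7% and 100%. Summed over Trac, Trbc1 and Trbc2, the receptor took 0.670% and 0.787% of UMIs in small butyrate barcodes and 0.687% and 0.734% in small control barcodes. In large barcodes it took 0.789% and 0.836% in butyrate and 0.639% and 0.671% in control, and in free RNA 0.719% and 0.800% in butyrate and 0.616% and 0.641% in control. All 3 overlapped, so a receptor UMI does not tell a cell from free RNA. The receptor beta segment Trbv13-3 supplied 20 of 21 and 18 of 20 Trbv UMIs in small butyrate barcodes and 29 of 36 and 32 of 36 in small control barcodes. Large barcodes drew 87.4% to 89.1% of their Trbv UMIs from the same segment. The alpha segment Trav14 supplied 0 of 3 Trav UMIs in small barcodes of butyrate 1, 0 of 4 in control 1 and 0 of 3 in control 2, and butyrate 2 had no Trav UMI. It supplied 14.8% and 16.2% in large butyrate barcodes and 7.48% and 7.34% in large control barcodes. The exact 95% intervals of the small shares reach 60.2% to 70.8%, so a difference was not detectable at this depth.

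Class sums of thinned counts were compared with edgeR's quasi-likelihood test with a term for the library, and 9.73% of the 7362 genes tested passed an adjusted p of 0.05 (Benjamini-Hochberg). None of the 19 T cell receptor and CD8 genes passed in either direction, with a median log2 difference of 0.15 against -0.12 over all genes tested. DESeq2, which gave no adjusted p for 3854 of the 7362 genes, called 1 of them higher and scaling by library totals 2. Cd3e, a signalling chain of the receptor complex, had 289 and 192 normalised CPM (normalised counts with mt- genes left out) in small butyrate barcodes and 685 and 693 in small control barcodes. Its level in large barcodes was 294 and 347 in butyrate and 406 and 420 in control. Its log2 difference was 0.35 ± 0.17 (SE), with adjusted p = 0.198. Trac had log2 difference 0.03, Cd8a 0.36 and Cd8b1 0.15, none past the threshold.

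Neutrophil list genes were not found. Genes of the B cell, myeloid, dendritic, NK, gamma-delta T and CD4 or regulatory T lists were found in many small barcodes. Before thinning each of these lists was found in a larger share of large barcodes, which held more UMIs. Of the B cell genes Cd79a and Ms4a1, the macrophage genes C1qa and Csf1r, the neutrophil genes S100a8 and S100a9, Foxp3 and Cd4, no UMI was found in any small barcode. Neutrophil, erythroid and platelet lists gave 0, 1 and 1 UMIs over all 342 barcodes. Myeloid genes took 0.0149% and 0.0315% of UMIs in small butyrate barcodes and 0.0131% and 0.0123% in small control barcodes. Large barcodes had 0.0144% to 0.0217%. Before thinning, myeloid genes were found in 118 small barcodes with 269 UMIs. Dendritic cell genes took 0.0179% and 0.0296% in small butyrate barcodes and 0.0393% and 0.0149% in small control barcodes, against 0.00834% to 0.0119% in large barcodes, higher in 4 of 4 libraries. A single small barcode in butyrate 2 held 67 myeloid and 61 dendritic UMIs beside 7 receptor and CD8 UMIs, and another in control 1 held 13, 53 and 5. All 29 UMIs of Fscn1, a gene of mature dendritic cells, lay in 2 barcodes, 1 in butyrate 2 and 1 in control 1. Ccr7, which naive T cells and mature dendritic cells both express, had 160 UMIs in 72 small barcodes, at most 20 in 1 barcode. B cell genes took 0.00746% and 0.0130% of UMIs in small butyrate barcodes and 0.0280% and 0.0228% in small control barcodes. Large barcodes had 0.00636% to 0.0182%, and small barcodes were higher in 4 of 4 libraries. Before thinning, B cell genes were found in 171 small barcodes with 302 UMIs. The MHC class II gene H2-Ab1 alone had 73 UMIs in 61 small barcodes. NK list genes, which include Gzma, took 0.401% and 0.517% in small butyrate barcodes and 0.0364% and 0.0412% in small control barcodes, against 0.771% and 0.930% in large butyrate and 0.114% and 0.154% in large control barcodes. They were found, before thinning, in 217 of the 342 small barcodes with 2860 UMIs. The NK gene Ncr1 was at 0 UMIs, Klrb1c had 14 and Fcer1g 33. Trdc, the constant segment of the delta receptor chain, had 180 UMIs in 110 small barcodes. The gamma-delta T list took 0.00597% and 0.00370% in small butyrate barcodes and 0.0140% and 0.0158% in small control barcodes, against 0.00597% to 0.0179% in large barcodes. The CD4 or regulatory T list had 1350 UMIs in 288 small barcodes and took 0.0889% to 0.109% of UMIs in small barcodes against 0.0647% to 0.0810% in large barcodes. The part of other cell types in the results below was not tested.

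The share of mt- UMIs split the small barcodes into unlike sets. Of the 342 barcodes, 37 had under 0.1% mt- UMIs and 9 had 0.1% to 1%, whereas 100 had 8% to 10%. A dividing value of 2% was chosen after the data were seen. Below 2% lay 21 and 18 barcodes in the butyrate libraries, 32.2% of that group's small barcodes, and 13 and 8 in the control libraries, 9.50%. Among large barcodes 2.30% lay below 2%. The 60 small barcodes under 2% had a median of 2516.5 UMIs and 31 of them had no Malat1 UMI. The other 282 had a median of 4828 UMIs and 3 of them had no Malat1 UMI. At 1000 UMIs each, Malat1 was missing from 56.7% of the small barcodes under 2% mt-, 1.77% of the other small barcodes and 4.98% of the large barcodes.

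**Figure D2:**
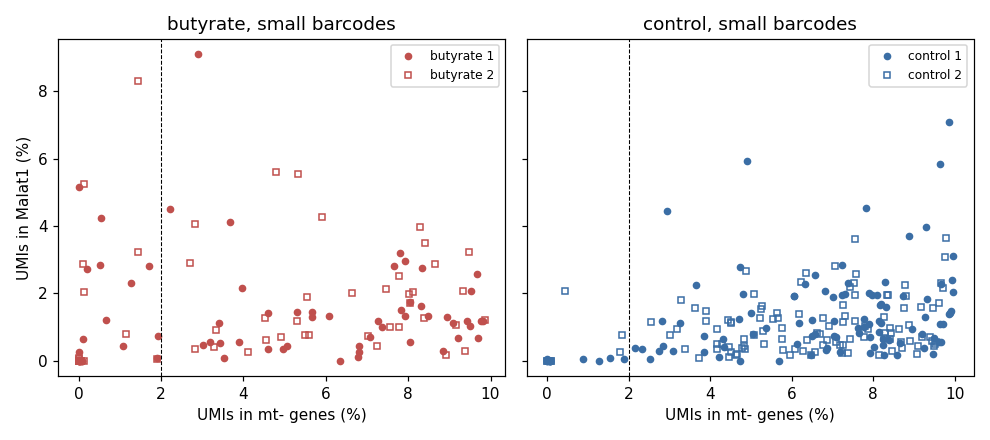
Percent of UMIs in Malat1 against percent of UMIs in mt- genes for each small barcode, butyrate at left and control at right, with filled circles for replicate 1 and open squares for replicate 2. The dashed line marks 2% mt-; left of it 31 of 60 barcodes have no Malat1 UMI, and right of it 3 of 282.

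Barcodes under 2% mt- with fewer than 10 Malat1 UMIs, 23 in butyrate and 19 in control, were low in resting genes and high in actin cytoskeleton genes. Resting and naive state genes took 0.0522% of their UMIs in butyrate and 0.0737% in control, against 0.122% and 0.175% in large barcodes. Actin cytoskeleton genes took 7.98% and 6.38%, against 6.003% and 5.004% in large barcodes. G2M phase genes took 0.578% in butyrate and 1.11% in control, against 0.606% and 0.952%. Nuclear-encoded respiratory chain genes took 2.87% and 2.75%, against 2.25% and 2.06%. A further 18 barcodes under 2% mt- had 10 or more Malat1 UMIs, and 16 of these were in butyrate libraries, where Malat1 took 2.84% and the ribosomal RNA-derived genes Gm42418 and AY036118 took 3.95% of UMIs. The Malat1 share of these 18 follows in part from their choice by Malat1 UMIs. The values of this paragraph are pooled over the libraries of a treatment and are descriptions.

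The remaining small barcodes, 82 in butyrate and 200 in control with 2% or more mt- UMIs, were high in resting genes and low in cell cycle genes. Resting and naive state genes took 0.300% of their UMIs in butyrate and 0.452% in control, against 0.122% and 0.175% in large barcodes. G2M phase genes took 0.350% and 0.437%, against 0.606% and 0.952%. Malat1 took 1.64% and 1.23%, against 0.733% and 0.551%.

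Most small barcodes scored below the profile of free RNA, and a larger share of small than of large barcodes reached it in 4 of 4 libraries. Each barcode, thinned to 1000 UMIs, was scored by the mean log2 ratio of free-RNA to large-barcode abundance over its UMIs, with mt- genes left out. The median score of small barcodes was -0.0439 and -0.0125 in the butyrate libraries and -0.0199 and -0.00644 in the control libraries. The median of large barcodes was -0.0369 and -0.0209 in butyrate and -0.0393 and -0.0385 in control. The small median was above the large median in 3 of 4 libraries, all but butyrate 1. Since the score contrasts only these 2 profiles, it does not measure how unlike free RNA a barcode is. Pure free RNA would score 0.0375 and 0.0250 in butyrate and 0.0424 and 0.0422 in control. The score was at or above that of pure free RNA in 15 of 67 and 10 of 54 small butyrate barcodes, and in 15 of 107 and 12 of 114 small control barcodes. Large barcodes reached it in 0.664% and 1.66% of cases in butyrate and 6.63% and 6.86% in control. Among small barcodes, those under 2% mt- with fewer than 10 Malat1 UMIs had median scores of 0.0286 in butyrate and 0.0340 in control. Those with 2% or more mt- had medians of -0.0427 in butyrate and -0.0125 in control.

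Against large barcodes, small barcodes had more RNA of quiescence genes and less of cell cycle and growth genes per UMI. Of the 7362 genes tested, 231 were higher (3.14%) and 485 lower (6.59%) by edgeR's adjusted p of 0.05. Scaling by library totals, which moved the median log2 difference of all genes to 0.01, gave 297 higher and 274 lower. The counts were 73 higher and 218 lower without control 1, and 73 and 240 without control 2. Small sums were shallow, 51511 to 106851 UMIs outside mt- genes against 1957790 to 2536304 for large sums, so a gene could pass the filter on low counts through the large sums alone.

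Resting and naive state genes rose in small barcodes, with 16 of 19 tested members higher and none lower (25 in the list), and a median log2 difference of 1.15. The count was 16 of 19 when barcodes under 2% mt- were left out, 13 with DESeq2, and 9 without control 1 or without control 2. With an mt- limit of 5%, which left 34 and 28 small barcodes in butyrate and 34 and 34 in control, among them the 60 under 2% mt-, it was 3 of 15. Their summed share was 0.225% and 0.304% of UMIs in small butyrate barcodes and 0.435% and 0.404% in small control barcodes. In large barcodes it was 0.120% and 0.1246% in butyrate and 0.184% and 0.167% in control, lower than in small barcodes in 4 of 4 libraries. The exact two-sided sign-flip test over 4 libraries gave the smallest p it allows, which was 0.184 after adjustment over 59 measures.

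Il7r, the alpha chain of the IL-7 receptor (CD127; ENSMUSG00000003882, chromosome 15, 9505788 to 9530176, minus strand, GRCm38), gave 7 and 4 UMIs in small butyrate barcodes and 26 and 39 in small control barcodes. Its level was 106 and 69.7 CPM in small butyrate barcodes and 248 and 351 in small control barcodes. In large barcodes it was 65.4 and 82.0 CPM in butyrate and 68.1 and 75.8 in control. Small barcodes were higher in 3 of 4 libraries on this scale, all but butyrate 2, where the share of all UMIs, which is not TMM-scaled, was 0.00741% in small and 0.00689% in large barcodes. The log2 difference was 1.54 ± 0.23 (edgeR adjusted p = 1.03e-08). After thinning 16.1% of small and 5.83% of large barcodes had an Il7r UMI, and without thinning 42.1% and 49.3% did.

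Tcf7, a transcription factor of naive and memory T cells, gave 1 and 2 UMIs in small butyrate barcodes and 13 and 31 in small control barcodes, with a log2 difference of 1.71 ± 0.31 (adjusted p = 3.98e-06) that was no longer called without control 2. Btg1, an antiproliferative gene, had 335 and 488 CPM in small butyrate barcodes and 447 and 360 in small control barcodes, against 187 and 199 in large butyrate and 151 and 122 in large control barcodes. Every small level of Btg1 lay above every large level. The cell cycle inhibitor Cdkn1b rose by 1.38, the thioredoxin-binding Txnip by 1.12, the lymph node homing receptor Ccr7 by 2.29 and the survival gene Bcl2 by 0.65 on the log2 scale. Bcl2 lost its call without butyrate 2 and without control 1, and Il7r, Tcf7, Klf2 and Bcl2 were not called with the mt- limit of 5%. Klf2, which controls T cell circulation, rose by 1.26 and was not called without control 2.

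Other genes with the largest rises were the O-GlcNAc transferase Ogt (1.40), the glucose transporter Slc2a3 (1.34), the autophagy gene Tecpr1 (1.50), the ubiquitin ligase gene Neurl3 (1.35) and the interferon-inducible Ifi27l2a (1.30). Interferon response genes were higher for 6 of 24 tested, among them Ifi47 (1.14) and Ifi203 (1.13), with no member lower. The interferon count was 3 without control 1 and 3 without control 2, and Ifi203 lost its call without control 1 and without control 2. Of 6 tested genes of the CD4 or regulatory T list 2 rose, the transcription factor Ikzf2 (1.62) and the inhibitory receptor Ctla4 (1.19), while Cd4 and Foxp3 were at 0 UMIs.

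Cell cycle genes fell. Of S phase genes 17 of 42 were lower and none higher, with a median log2 difference of -1.05, and of G2M phase genes 24 of 48 tested were lower and none higher, with a median of -1.04. DESeq2 called 6 and 7 of them lower, and with an mt- limit of 5% edgeR called 3 and 2. Without control 1 the counts were 10 and 15, and without control 2 they were 10 and 16. Rrm2, the regulated subunit of ribonucleotide reductase (ENSMUSG00000020649, chromosome 12, 24708241 to 24714146, plus strand, GRCm38), had 76.1 and 34.8 CPM in small butyrate barcodes and 9.52 and 36.0 in small control barcodes. In large barcodes it had 217 and 215 CPM in butyrate and 154 and 153 in control, and its log2 difference was -2.31 ± 0.33 (edgeR adjusted p = 2.40e-09). Every small level was under every large level.

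Among other replication genes Mcm3, a helicase subunit, fell by 1.40 and Dut, a dUTPase, by 1.24 on the log2 scale. Mki67, a marker of cycling cells, had 289 and 122 CPM in small butyrate barcodes and 228 and 180 in small control barcodes. Large barcodes had 473 and 445 CPM of Mki67 in butyrate and 625 and 542 in control, a log2 difference of -1.37 ± 0.19 (adjusted p = 9.73e-10). Top2a, the topoisomerase of dividing cells, fell by 1.28 and Hmgb2, a chromatin protein, by 0.80. Lmnb1, which encodes lamin B1, fell by 1.69 and had 0 UMIs in small butyrate 2 barcodes.

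Part of the growth and protein making genes fell, while most members of these lists did not pass. Ribosome biogenesis genes were lower for 11 of 28 and higher for none, led by Npm1 (-0.82), a nucleolar chaperone. Activation and growth genes were lower for 8 of 22, among them Eif5a (-0.89), a translation factor, and Srm (-1.65), spermidine synthase. Nuclear-encoded respiratory chain genes were lower for 23 of 58, for instance Cox5a (-0.91) and Ndufa4 (-1.28). Without control 1 and without control 2 the counts were 7 and 8 for the respiratory chain and 4 and 4 for ribosome biogenesis. They were 5 and 4 for activation and growth, and 4 and 5 for the heat shock genes described next. In the order respiratory chain, ribosome biogenesis, activation and growth, the counts were 9, 6 and 5 with library totals, 4, 2 and 3 with DESeq2, and 4, 2 and 2 with an mt- limit of 5%. DESeq2 called 2 heat shock and 2 actin genes lower, and library totals gave 5 and 5. Actin cytoskeleton genes were lower for 7 of 26, or 4 without butyrate 1 and 4 without control 1, for instance the actin-bundling gene Tagln2 (-0.77) and Pfn1, which encodes profilin (-0.55). Heat shock genes were lower for 8 of 16 and higher for 1, with Hsp90aa1 at -0.80. Cytosolic ribosomal protein genes were lower for 10 of 82, at a median of -0.12 that equals the median of all genes. With library totals 6 were higher and 5 lower, and with DESeq2 1 and 2. The lower count was 5 without butyrate 1, 4 without butyrate 2 and 3 without control 1. Rps2 was at -0.62 and Rps27l at -0.95.

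Single genes with the largest falls included Ddost (-1.53) and Rpn1 (-1.52), subunits of the enzyme that adds N-glycans in the endoplasmic reticulum. Lsm2 (-1.50), an RNA-processing gene, Mrpl20 (-1.42), a mitochondrial ribosomal protein gene, and Smarca5 (-1.46), a chromatin remodeller, were also among them. Each was lower in 4 of 4 libraries. Myc (0.15), Il2ra (-0.02) and Prf1 (-0.53) did not pass.

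Cytotoxic genes were mixed, with 2 of 22 tested higher and 4 lower. Gzmb, the granzyme B protease (ENSMUSG00000015437, chromosome 14, 56258838 to 56262260, minus strand, GRCm38), had 5005 and 2979 CPM in small butyrate barcodes and 781 and 702 in small control barcodes. Large barcodes had 9293 and 9176 CPM of Gzmb in butyrate and 2122 and 2269 in control, and the log2 difference was -1.39 ± 0.14 (edgeR adjusted p = 3.33e-21). Gzma, another granzyme, fell by 1.57 and Gzmc by 0.84. Ccl5, a chemokine of memory and effector T cells, went the other way, with 1841 and 3293 CPM in small butyrate barcodes and 324 and 531 in small control barcodes. In large barcodes Ccl5 had 1608 and 1813 CPM in butyrate and 106 and 168 in control, a log2 difference of 0.98 ± 0.15.

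The nuclear RNAs Malat1 and Neat1 rose, as did Gm42418 and AY036118, which are derived from ribosomal RNA. Malat1 (ENSMUSG00000092341, chromosome 19, 5795690 to 5802672, minus strand, GRCm38) took 1.38% and 1.63% of UMIs in small butyrate barcodes and 1.21% and 1.05% in small control barcodes. It took 0.733% and 0.732% in large butyrate barcodes and 0.582% and 0.526% in large control barcodes. Free RNA held less, 0.421% and 0.489% in butyrate and 0.360% and 0.335% in control. The log2 difference between small and large was 0.88 ± 0.12, and Neat1, another nuclear RNA, rose by 1.53. Gm42418 and AY036118 together took 1.71% and 1.17% in small butyrate barcodes and 1.10% and 0.755% in small control barcodes. Large barcodes had 0.136% to 0.406%. Free RNA had 0.751% and 0.492% in butyrate and 1.16% and 0.961% in control, above the small share in both control libraries. Lars2, the mitochondrial leucyl-tRNA synthetase, rose by 1.96.

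Immediate early and stress genes were higher for 5 of 15 tested and lower for none, among them Jun (1.41), Egr1 (0.71) and Nfkbia (1.49), an inhibitor of NF-κB. Without the barcodes under 2% mt- the count was 1 of 15, and it was 2 without butyrate 1, 3 without butyrate 2, 3 without control 1 and 3 without control 2. Jun and Egr1 were not called without those barcodes, and Egr1 was also not called by DESeq2, without butyrate 1 or without butyrate 2. In butyrate, the 16 barcodes under 2% mt- with 10 or more Malat1 UMIs had 0.856% of their UMIs in these genes, against 0.261% in small barcodes with 2% or more mt-. The part of all 60 barcodes under 2% mt- in the other gene groups was measured by leaving them out. Without them 16 of 19 resting, 18 of 41 S phase and 24 of 49 G2M phase genes passed. No fit left out the 16 alone.

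**Figure D3:**
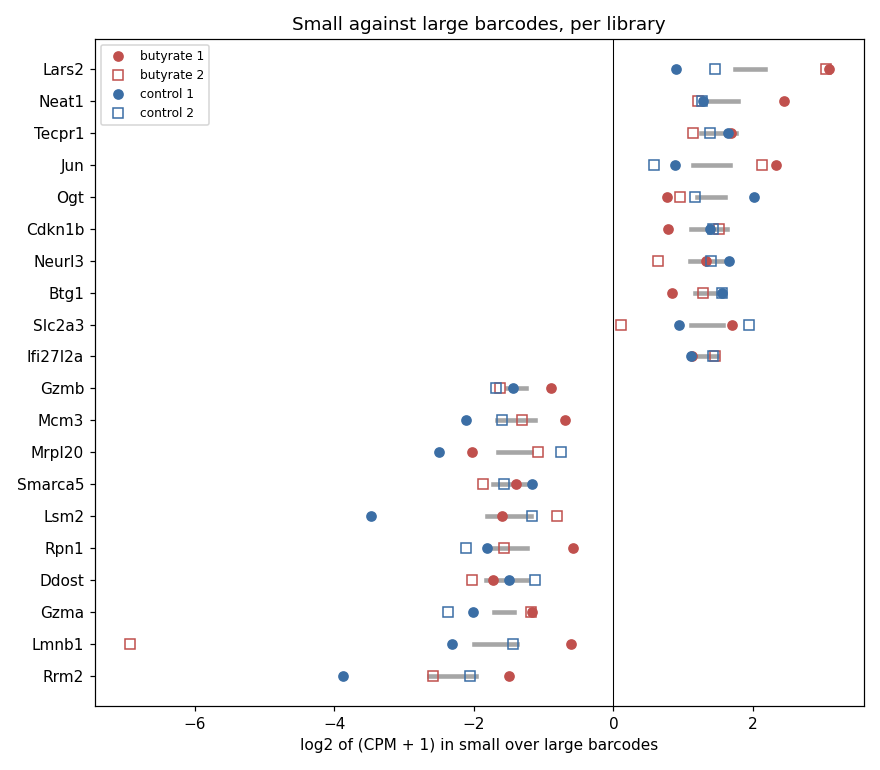
Log2 ratio of CPM + 1 in small over large barcodes for the genes with the 10 largest rises and 10 largest falls, 1 point per library (red butyrate, blue control), with grey bars for the fitted log2 difference ± 1 SE. All points of a gene lie on 1 side of 0, and the far left point is Lmnb1 in butyrate 2, which had 0 UMIs.

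Levels changed gradually with UMIs above the upper limit of the small barcodes. The share of resting genes at 1000 UMIs per barcode was 0.225% and 0.200% in butyrate and 0.444% and 0.492% in control for barcodes with 1000 to fewer than 4000 UMIs. For barcodes with 6500 to fewer than 8000 UMIs it was 0.249% and 0.256% in butyrate and 0.342% and 0.367% in control. Above 25000 UMIs it was 0.0931% and 0.0935% in butyrate and 0.123% and 0.111% in control. G2M phase genes took 0.362% and 0.215% in butyrate and 0.368% and 0.373% in control from 6000 to fewer than 6500 UMIs, and 0.711% and 0.731% in butyrate and 1.15% and 1.11% in control above 25000 UMIs. The share of Malat1 above 25000 UMIs was 0.613% and 0.598% in butyrate and 0.450% and 0.402% in control. Below 4000 UMIs it was 1.88% and 1.85% in butyrate and 1.33% and 1.19% in control.

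**Figure D4:**
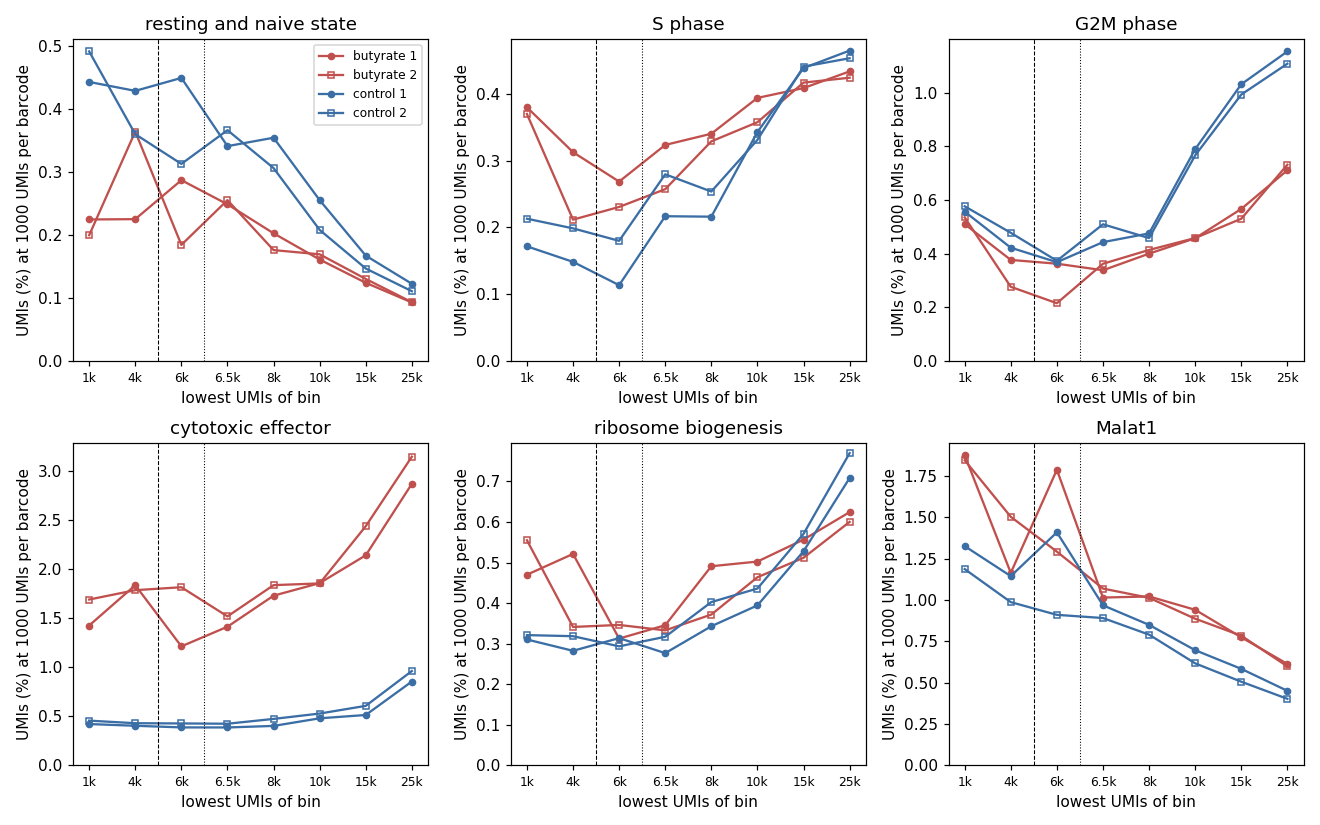
Percent of UMIs in 5 gene lists and Malat1 by UMI bin, each barcode thinned to 1000 UMIs, 1 line per library. The dashed line marks the upper limit of the small barcodes and the dotted line the lower limit of the large ones; the resting share is lowest and the cytotoxic share highest in the bin from 25000 UMIs in every library.

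Within 500 UMIs below the upper limit, resting genes took 0.287% of UMIs in 24 butyrate barcodes and 0.364% in 50 control barcodes. In the next 500 UMIs they took 0.241% in 29 butyrate barcodes and 0.371% in 52 control barcodes. With 9% to under 10% mt- the shares were 0.229% in 14 butyrate and 0.554% in 35 control barcodes, and with 10% to under 11% they were 0.274% in 19 butyrate and 0.423% in 30 control barcodes.

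Against free RNA, the resting genes were again higher in small barcodes and the cell cycle genes lower. Of 8232 genes tested 18.5% passed edgeR's adjusted p of 0.05, with 495 higher (6.01%) and 1024 lower (12.4%). Scaling by library totals gave 908 higher and 429 lower and gave a median log2 difference over all genes of 0.23, against -0.12 with TMM scaling. Without control 1 the count of higher genes was 217, and without control 2 it was 202. Resting and naive state genes were higher for 16 of 19 tested, at a median of 1.42, and T cell receptor and CD8 genes for 4 of 19, with 1 lower. With an mt- limit of 5% no resting gene of 19 passed by edgeR, at a median of 0.55. The T cell receptor and CD8 count was 2 without control 1 and 1 without control 2. Nuclear-encoded respiratory chain genes were lower for 47 of 58 and cytosolic ribosomal protein genes for 56 of 82. With library totals 22 respiratory chain genes were lower, and 19 ribosomal protein genes were lower and 9 higher. DESeq2 gave 28 and 23 lower. Ribosomal protein genes took 32.0% and 31.4% of UMIs in small butyrate barcodes and 32.8% and 33.4% in small control barcodes, against 34.3% and 32.2% in free RNA of butyrate and 34.6% and 33.8% of control libraries.

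Il7r gave the largest rise over free RNA among genes named by size, 1.91 ± 0.25 on the log2 scale (adjusted p = 2.18e-12). It stood at 91.4 and 63.6 CPM in small butyrate barcodes and 243 and 331 in small control barcodes, against 48.2 and 50.03 CPM in free RNA of butyrate libraries and 53.9 and 54.0 of control libraries. Tcf7 rose by 1.79, a call lost without control 2, Malat1 by 1.35, Bcl2 by 1.12 and Cd3e by 0.62. Cd3e lost its call without control 1 and without control 2. Ogt (1.80), the cytoskeletal linker Macf1 (1.65), the antiproliferative Btg2 (1.64), the endosomal sorting gene Vps37b (1.61) and the scaffold gene Akap13 (1.61) followed. Rrm2 (-2.66), the endoplasmic reticulum gene Sdf2l1 (-2.29), Lsm2 (-2.09), the cell division gene Cdca3 (-2.06), Lmnb1 (-1.98) and the mitochondrial ribosomal gene Mrpl42 (-1.98) were the genes with the largest falls. Gzmb was lower by 1.88 and Klf2 (0.45) did not pass.

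Butyrate and control differed broadly in the small barcodes. Whether the cells themselves or the mix of barcodes picked by the rule differed was not tested. All UMIs of the small barcodes were summed per library, and 18% of 4575 genes passed edgeR's adjusted p of 0.05, with 428 higher (9.36%) and 396 lower (8.66%) in butyrate. The counts were 229 and 201 without butyrate 1, 202 and 210 without control 1, and 186 and 214 without control 2. At 1000 UMIs per barcode 1144 genes were tested, and 89 were higher and 134 lower. The sums held 269501 and 205083 UMIs outside mt- genes in butyrate and 424322 and 473881 in control. The share of small barcodes under 2% mt- was higher in butyrate (32.2% against 9.50% in control), and without them 320 genes were higher and 303 lower.

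Effector genes rose in butyrate, with 9 of 21 cytotoxic genes higher and 3 lower. In large barcodes, whose sums were deeper, 19 of 28 were higher and 5 lower. Prf1, the pore-forming perforin, had 478 and 438 CPM in small butyrate barcodes and 18.4 and 22.5 in small control barcodes. The log2 difference was 4.46 ± 0.27 (edgeR adjusted p = 4.76e-11), against 4.50 in large barcodes. Gzma had 5068 and 5365 CPM in butyrate and 348 and 351 in control, a log2 difference of 3.90 in small barcodes and 2.97 in large ones. The cytokine gene Lta rose by 4.40, the stress gene Gadd45g by 3.67, the signalling regulator Rgs1 by 2.75, the cell cycle inhibitor Cdkn1a by 2.69 and Gzmb by 2.47. Gzmb lost its call when the barcodes under 2% mt- were left out. Il2ra, the IL-2 receptor alpha chain, had 551 and 389 CPM in butyrate and 89.9 and 96.0 in control, a log2 difference of 2.35.

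Growth genes rose with them. Activation and growth genes were higher for 11 of 22 and lower for none, for example Myc (1.66) and the costimulatory receptor Tnfrsf4 (3.74). Ribosome biogenesis genes were higher for 11 of 23, such as Nop56 (1.85), and S phase genes for 13 of 34, such as Dut (1.14). G2M phase genes did not rise with them, with 1 of 34 higher and 6 lower, at a median of -0.26. Nuclear-encoded respiratory chain genes were higher for 24 of 58 with 1 lower. The median over all genes tested was 0.00. In large barcodes activation and growth genes were higher for 13 of 22 with 2 lower, and ribosome biogenesis genes for 13 of 28. There S phase genes were higher for 15 of 42 with 2 lower, and respiratory chain genes for 38 of 58 with 3 lower. G2M phase genes were lower there for 39 of 51 with 3 higher. In small barcodes Hspa5, a chaperone of the endoplasmic reticulum, rose by 1.65. The S phase count was 6 without butyrate 1, 3 without control 1 and 6 without control 2, and the respiratory chain count was 12, 8 and 9 without those libraries. For ribosome biogenesis it was 4, 4 and 6.

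Quiescence and glycolysis genes fell in butyrate. Resting and naive state genes were lower for 8 of 18 and higher for 1, and glycolysis genes lower for 10 of 17 and higher for none. The glycolysis count was 6 without butyrate 1 and 6 without control 1. Tcf7 had 19.4 and 39.4 CPM in small butyrate barcodes and 166 and 272 in small control barcodes, a log2 difference of -2.95 ± 0.37 (adjusted p = 7.53e-06). Il7r had 113 and 138 CPM in butyrate and 297 and 376 in control, a log2 difference of -1.44 ± 0.23 (adjusted p = 0.000124), and its difference in large barcodes was 0.03. The costimulatory receptor Cd27 fell by 2.42, the growth repressor Mxd4 by 2.38, the quiescence gene Slfn2 by 2.33 and Cdkn1b by 2.07. The interferon-inducible genes Ifi203 and Ifi27l2a fell by 2.07 and 1.89, and Ikzf2, a transcription factor, by 1.96. The aldolase Aldoc fell by 3.86 and the isomerase Tpi1 by 0.98. In large barcodes glycolysis genes were lower in butyrate for 11 of 21 with 2 higher, and resting and naive state genes for 7 of 22 with 4 higher.

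T cell receptor and CD8 genes were lower in butyrate for 7 of 19 and higher for none, for instance Cd3e (-0.92) and Cd3g (-0.95). In large barcodes, where 37.8% of 9308 genes passed (19.9% higher and 17.8% lower), the log2 difference of Cd3e was -0.37. Of the 19 T cell receptor and CD8 genes, 9 were lower there and 4 higher.

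**Figure D5:**
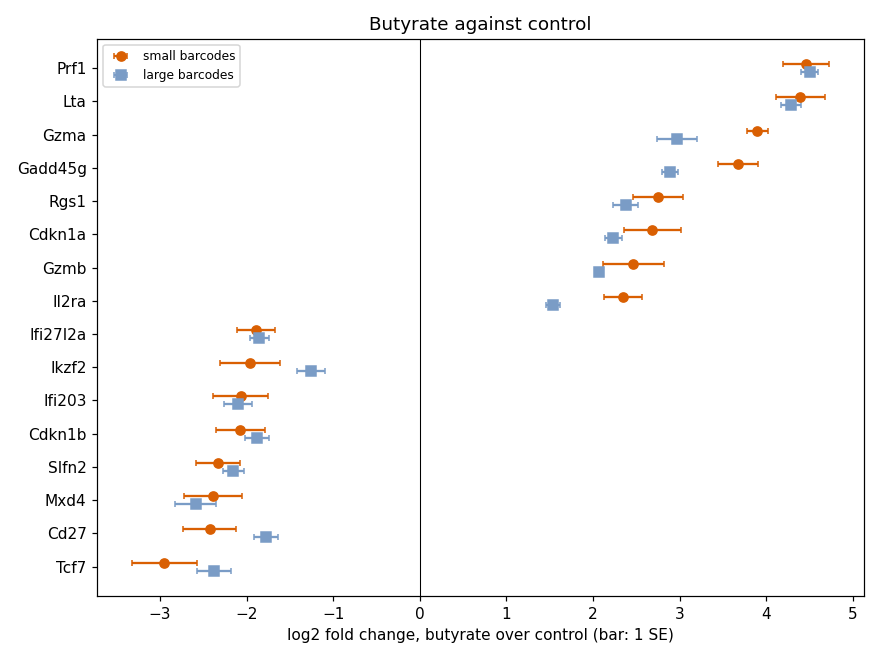
Log2 fold change of butyrate over control ± 1 SE in small barcodes (orange, all UMIs) and large barcodes (blue, thinned to 1000 UMIs) for the 8 largest rises and 8 largest falls in small barcodes. Every gene lies on the same side of 0 in both classes; the groups compared share no barcodes but share the libraries.

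Whether the small-to-large difference itself differed between treatments was tested by the product of class and treatment. Of 7362 genes 0.801% passed edgeR's adjusted p of 0.05, with 8 higher (0.109%) and 51 lower (0.693%) in butyrate, at a median over all genes of -0.18. DESeq2 called 1 higher and 0 lower, and at an unadjusted p of 0.05 it gave 68 higher and 103 lower. Library totals gave 20 higher and 6 lower. Leaving out 1 library gave 1 higher and 0 lower without butyrate 1, 2 and 0 without butyrate 2, 7 and 45 without control 1, and 5 and 3 without control 2. Of the 51 lower genes 25 were cytosolic ribosomal proteins; 3 of these genes were lower with library totals, 0 with DESeq2, without butyrate 1 or without butyrate 2, and 1 without control 2.

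Il7r was among the genes that passed: its small-to-large log2 difference was lower in butyrate by 1.77 ± 0.45 (edgeR adjusted p = 0.0127). Klrd1, an NK-type receptor gene (-1.70), Gimap6, a lymphocyte GTPase (-1.63), Emb, an adhesion molecule (-1.58), Ypel3 (-1.97), Trbc1 (-1.41) and Cd3e (-1.13) were also lower; Trbc1 is nearly identical in sequence to Trbc2, so its own level is uncertain. The linker histone genes Hist1h1a (2.11) and Hist1h1b (1.78), Lars2 (1.92) and Gzma (1.03) were higher. Hist1h1b had 669 and 192 CPM in small butyrate barcodes and 152 and 180 in small control barcodes, against 405 and 299 in large butyrate and 519 and 423 in large control barcodes. Its small level was above the large level in butyrate 1 and below it in the other 3 libraries, and its log2 difference was 0.84 without butyrate 1. Hist1h1a and Hist1h1b were not called without the barcodes under 2% mt-. Canonical histone genes took 0.906% of UMIs in the 16 butyrate barcodes under 2% mt- with 10 or more Malat1 UMIs, against 0.179% in butyrate barcodes with 2% or more mt-. All 11 of these genes lost their call without butyrate 1, and all 11 without butyrate 2.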

How the data were processed

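The deposited files held, per library, the raw matrix of UMI counts over 32285 genes for every droplet barcode, made with Cell Ranger 4 against mm10, per the submitters' processing notes, which also name Seurat 4.3. Barcodes were selected on UMIs, detected genes and mt- share. Each was thinned to 1000 UMIs (seed 1) and summed by library and class, except where all UMIs are named. The 13 mt- genes were removed. Sums were tested with edgeR 4.0.16 (R 4.3.3; TMM, filterByExpr, robust quasi-likelihood, Benjamini-Hochberg over all genes tested), with library as block between classes; DESeq2 1.42.0 was an alternative. Free-RNA sums were not thinned, and genes could pass the filter through the deeper sums alone. Genes named were the largest changes that passed with a mean of 100 CPM or more. They also had 1 direction in all libraries or, between treatments, groups that did not overlap. For the product of class and treatment no rule on direction or overlap was used. Fixed T cell and cell cycle genes and leading members of 26 lists were named as well. The members and lists were chosen with earlier results of these data known. Butyrate and control cultures of 1 replicate number came from the same mouse, per the labels; their deviations correlated at -0.0415 (Pearson, across 4575 genes). Coordinates are of GENCODE M21, in which 32158 gene IDs matched. Doublets were not called. The fits of small against large barcodes and of butyrate in small barcodes were also run on simulated counts. The outcome is not given here, and the other comparisons were not simulated.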

Additional observations from a re-analysis of the deposited data

Results flagged for a closer look

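The small-to-large difference differed between butyrate and control by the test of class by treatment for 8 genes higher and 51 lower in butyrate. The named genes were Hist1h1a (log2 difference of 2.11), Lars2 (1.92), Hist1h1b (1.78) and Gzma (1.03), which were higher. Ypel3 (-1.97), Il7r (-1.77), Klrd1 (-1.70), Gimap6 (-1.63), Emb (-1.58) and Trbc1 (-1.41) were lower. Each of these lost its call without butyrate 1 and without butyrate 2.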

How the results depend on the processing

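Counts are given as higher then lower. With library totals they were 297 and 274 for small against large barcodes, 908 and 429 for small barcodes against free RNA, 20 and 6 for class by treatment, and 1075 and 2888 for butyrate in large barcodes. DESeq2 gave 133 and 96, 427 and 436, 1 and 0, and 970 and 558 for the same 4. It gave 131 and 94 for butyrate in small barcodes. No adjusted p came from DESeq2 for 3854 of 7362 genes between small and large barcodes. The same held for 2394 of 8232 genes against free RNA and 2661 of 4575 for butyrate in small barcodes. Its counts in those comparisons therefore cover fewer genes. With no filter on low counts the higher counts were 117, 216 and 5 for the first 3. An mt- limit of 5% gave 23 and 104, 18 and 464, 3 and 0, and 42 and 56 for butyrate in small barcodes. All UMIs gave 1331 and 1818, 1717 and 1675, 98 and 179, and 4868 and 4808 for butyrate in large barcodes. Thinning to 1000 UMIs gave 89 and 134 for butyrate in small barcodes. Leaving out barcodes under 2% mt-, an alternative added after seeing the data, gave 3 higher for class by treatment. The cause was not tested.

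Leaving out 1 library gave 73 to 225 higher and 218 to 438 lower for small against large barcodes, and 202 to 464 higher for small barcodes against free RNA. It gave 1 to 7 and 0 to 45 for class by treatment, and 186 to 474 and 201 to 400 for butyrate in small barcodes. A fit that leaves 1 library in a treatment assumes that it varies like the other.

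The replicate block, pairing cultures of 1 mouse, gave 453 higher and 419 lower for butyrate in small barcodes and 1908 and 1716 in large barcodes. With no replicate block the small against large counts were 300 and 607, those against free RNA 615 and 1174, and those of class by treatment 7 and 59.

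Genes that did not pass changed sign between small and large barcodes. With an mt- limit of 5%, Cd8a was at -0.079, Cd8b1 at -0.59, Trac at -0.49 and Il2ra at 0.18. With no filter, Cd8b1 was at -0.027, Trac at -0.15 and Myc at -0.026. Trac was at -0.028 from 2000 UMIs. Myc was at -0.27 without barcodes under 2% mt- and at -0.10 with all UMIs. Il2ra was at 0.16 with library totals, 0.063 with DESeq2 and 0.018 with no replicate block. Without 1 library Cd8b1 ran from -0.10 to 0.25, Trac from -0.068 to 0.087, Myc from -0.10 to 0.33 and Il2ra from -0.43 to 0.083.

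Small minus large, in percentage points of UMIs, was -0.114 for T cell receptor and CD8 genes, -0.844 for cytotoxic genes and -0.474 for actin genes with an mt- limit of 5%. It was -0.188 for activation genes and -1.05 for actin genes with all UMIs, and -1.13 for actin genes without barcodes under 2% mt-. Butyrate minus control in the share of small barcodes was -1.05 percentage points with an mt- limit of 5% and -8.71 with none. Small sums held 51511 to 106851 UMIs outside mt- genes, which limits the precision of genes of low level.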
